A study of Drosophila melanogaster with 2 samples.

Results

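Of the 3388 reproducible D1-eGFP peaks in whole Drosophila melanogaster pupae, 271 (8.0%) had their summit 1 to 500 bp downstream of the nearest annotated transcription start. They were chosen by position alone. The summit, the base of highest enrichment that the authors' lists give for each peak, was compared with every annotated gene start of the dm6 assembly, with transposable elements left out and downstream read on the gene's strand. Another 998 summits lay within 500 bp upstream of the nearest start, 2 fell on a start base and 2117 were farther away.

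D1 is an abundant chromosomal protein of Drosophila that carries many AT-hook motifs, short stretches that sit in the minor groove of A+T-rich DNA. It is best known for binding A+T-rich satellite repeats in heterochromatin, and it is also found along the chromosome arms. The stretch just downstream of a fly transcription start holds the 5′ untranslated region (5′ UTR), often the first intron and the place where RNA polymerase II pauses.

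The study has 1 group of 2 biological replicates. Both were whole pupae, aged 24 hour per the labels, of a transgenic line of strain D1 that stably expresses D1 with GFP at its C terminus. Chromatin was sonicated to a size range of 200 to 800 and precipitated with an anti-GFP antibody. The promoter that drives the fusion protein and the number of pooled animals are not stated in the labels, sex was not collected, and a whole animal mixes many cell types. There is no second condition, so no test was made, and the error of a value is its SD over the replicates' own peak lists. Read depth is unknown, because the lists hold peaks and no reads.

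DNA at or beside several of these peaks is shown here because AT hooks read base composition more than a fixed word. The Pyroxd1 stretch lies wholly outside its peak, downstream of the peak's end, and the last bases of the nej stretch fall outside its peak too. The examples were chosen with their values known and are not a fair sample of runs, which averaged 13.2 bases over all members. E(z), the 38th by signal, is printed for its long run of 33 bases. Each sequence is reference sequence of Release 6 read 5′ to 3′ on the gene's strand, with its longest unbroken run of A and T in capitals. The first 3 begin at the first base of the first intron.
PNPase, chr3R:31404613-31404652, minus strand, 88 to 127 bp downstream of the start: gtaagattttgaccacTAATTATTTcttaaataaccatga
E(z), chr3L:10637982-10638041, minus strand, 89 to 148 bp downstream: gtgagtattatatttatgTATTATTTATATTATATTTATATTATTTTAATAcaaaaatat
Pyroxd1, chr2L:20091506-20091585, plus strand, 71 to 150 bp downstream: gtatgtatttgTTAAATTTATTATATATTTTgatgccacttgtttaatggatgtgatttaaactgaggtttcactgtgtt
CG11309, chr3L:21304527-21304606, minus strand, 52 to 131 bp downstream: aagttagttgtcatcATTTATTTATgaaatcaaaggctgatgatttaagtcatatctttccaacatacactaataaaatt
nej, chrX:9685398-9685477, minus strand, 190 to 269 bp downstream: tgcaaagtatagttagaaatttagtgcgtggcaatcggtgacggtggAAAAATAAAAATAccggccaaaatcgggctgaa
dbo, chr3L:15827336-15827415, plus strand, 448 to 527 bp downstream: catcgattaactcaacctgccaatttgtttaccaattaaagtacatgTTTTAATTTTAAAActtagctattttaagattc

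The next set covers the D1 gene itself, a pair of 5′ UTRs and a non-coding RNA, each shown by its longest run.
D1, chr3R:9240255-9240284, minus strand, spanning the start: gcaccgacATATTTTTTTTTAcatcactac
ph-p, chrX:2137915-2137944, minus strand, 427 to 456 bp downstream: acgtatgtcTATTATATAATTctattttac
CG1227, chr3R:7249641-7249670, minus strand, 68 to 97 bp downstream: atcAAAATAAATATTAATTTATTAATAcgt
lncRNA:CR44149, chr2L:9568658-9568737, minus strand, 48 to 127 bp downstream: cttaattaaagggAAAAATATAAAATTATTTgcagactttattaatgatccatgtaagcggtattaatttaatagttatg

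Other examples had less A+T, with longest runs of 10 bases at CG32772, 7 at Cat and 4 at Trl and AGO2. Cat and CG32772 are shown because they were among the 15 highest peaks with less A+T, at 58.5% and 59.5% of 200 bp. Trl and AGO2 are shown because the DNA around their summits was poor in A+T, at 42% and 48.5%.
Cat, chr3L:18822869-18822948, plus strand, 265 to 344 bp downstream: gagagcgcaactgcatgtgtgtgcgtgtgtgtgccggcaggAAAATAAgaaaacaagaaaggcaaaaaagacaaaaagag
CG32772, chrX:4909172-4909201, plus strand, 70 to 99 bp downstream: tgtaaaatacAAAAAAAAAAcgcattcgaa
Trl, chr3L:14757036-14757065, minus strand, 271 to 300 bp downstream: ctcacctggggcgATTAcggcaccagcctc
AGO2, chr3L:15554344-15554423, plus strand, 231 to 310 bp downstream: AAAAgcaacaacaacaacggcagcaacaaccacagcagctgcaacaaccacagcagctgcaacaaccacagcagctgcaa

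The downstream side held the smaller part of the D1 summits near starts. Of the 1269 summits within 500 bp that had a side, 21.4% were downstream (95% exact binomial interval 19.1 to 23.7, counting error only). In the replicates' own lists, each cut to its 3388 highest peaks, 239 summits (19.0%) were downstream in replicate 1 and 339 (25.8%) in replicate 2, a mean of 22.4% ± 4.82 (SD, n = 2). Of all positions within 500 bp of a start, 54.7% are downstream of the nearest one. Measured against the whole assembly, these downstream positions make up 7.40% of the bases, close to the 8.0% of reproducible peaks found there. Among the 26612 pooled peaks below the reproducible set, the downstream share of sided summits was 43.2% (2197 of 5081), so it was higher in the weaker peaks.

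Downstream summits crowded towards the start. Their median distance was 167 bp (quartiles 84.5 and 291), with 168 bp in replicate 1 and 155 bp in replicate 2. Successive 100 bp bins held 89, 69, 49, 37 and 27 summits. The first bin thus had 32.8% of them and the last 9.96%, where 22.5% and 18.2% of the positions lie. Upstream summits peaked farther from the start, with 186, 300, 262, 155 and 95 in the same bins going outwards.

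**Figure D1:**
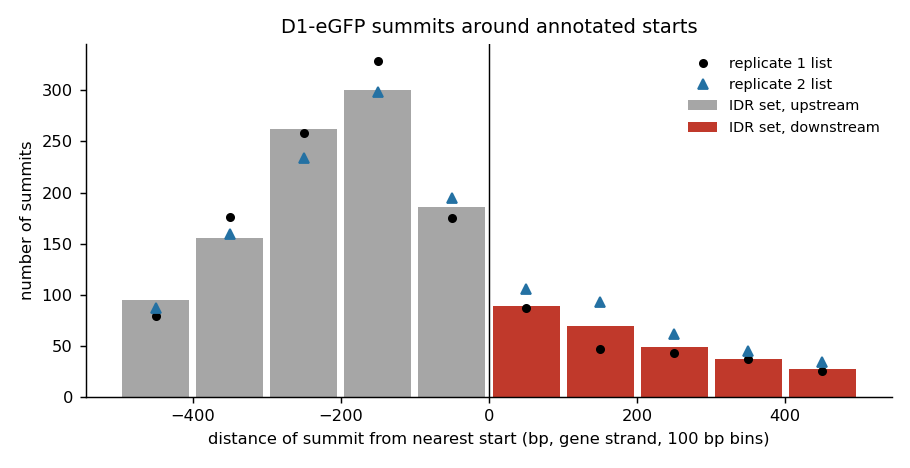
Number of D1-eGFP summits (vertical axis) by distance from the nearest start in bp on the gene's strand (horizontal axis, 100 bp bins), with bars for the reproducible set and points for the lists of replicate 1 and replicate 2. The downstream bars fall from 89 next to the start to 27 in the farthest bin, while the upstream bars reach 300 in their second bin.

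Peak intervals were wide against these distances, and 255 of the 271 (94.1%) had the same width of 420 bp, centred on the summit. Whether an interval includes the start is therefore mostly set by the distance of the summit. In 160 of the 271 peaks (59.0%) the interval included the start itself, with 54.8% and 61.1% in the replicates' lists. Both replicates had a summit within 100 bp at 245 members (90.4%), and at 230 of these (93.9%) both summits were downstream too. At the other 15, at least 1 replicate put its summit on the start or on the other side of it. Pyroxd1, for example, had the reproducible summit at 10 bp downstream, replicate 2 at 11 bp downstream and replicate 1 at 37 bp upstream (-37 in gene direction). The members are therefore peaks by the rule of the summit, and the side is least secure for those closest to a start.
The rule's edges were CG34001 and hay, which share a start, and p, each at 1 bp downstream, with a signal of 174 and 156. The farthest members were lncRNA:CR44749 at 496 bp, CG45544 at 489 bp and dbo at 488 bp. Just outside lay CG4497 and sqz with summits on the start base (149 and 151), CG11247 at 1 bp upstream (228) and lncRNA:CR44619 at 504 bp, whose signal of 861 exceeded that of all members but PNPase.

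The summits avoided coding sequence. The 5′ UTR held 153 of them (56.5%), where 38.3% of positions at the same distances are 5′ UTR, and in the replicates' lists the share was 56.5% ± 5.99 (SD, n = 2). Introns held 65 (24.0%; replicate lists 24.4% ± 4.51) against 16.3% of positions. Exons of non-coding RNAs held 33 (12.2%) against 11.3%, and 14 summits (5.17%) lay between genes, past the end of a short transcript, against 1.09%. Coding exons make up 31.2% of positions at these distances but held 6 summits (2.21%; replicate lists 2.31% ± 0.902). No summit was in a 3′ UTR.

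**Figure D2:**
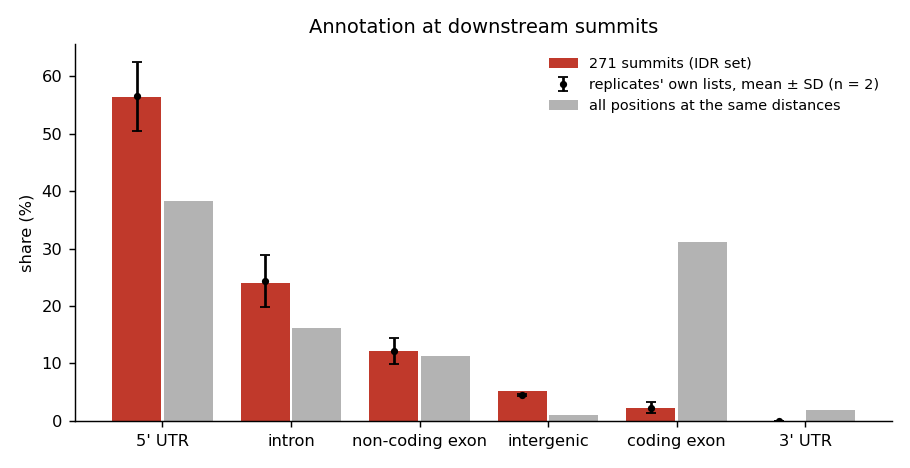
Share of summits in percent (vertical axis) by annotation (horizontal axis). Red bars are the 271 members, points with bars the mean and SD of the replicates' own lists (n = 2) and grey bars all positions at the same distances. The 5′ UTR bar is 56.5% against 38.3%, and the coding exon bar 2.21% against 31.2%.

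The intron share rose with distance, from 6.74% of summits at 1 to 100 bp to 70.4% at 401 to 500 bp. Among all positions introns cover 4.16% and 29.1% of the same bins, and the gap was widest in the farthest bin, where 27 summits lie. Counted by transcript structure, 189 summits were in a first exon, 59 in a first intron, 3 farther inside the transcript and 20 past its end. The 6 peaks in coding exons were at CG8414, AGO2, CG3902, CG4186, vari and CG5149, with signals from 153 to 257. The 80 bases printed for AGO2, the Argonaute protein of RNA interference in flies, are rich in CAA and CAG and lie in its coding sequence.

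DNA at downstream summits was richer in A+T than positions at the same distances from all starts, and less rich than at upstream summits. In 200 bp around the summit the mean was 63.3% (SD 7.50 over 271 peaks), with 64.6% and 61.7% in the replicates' lists. Positions at the same distances downstream of all starts average 54.96%. In 500 bp around the members' own summits the mean was 61.1%, also above that average. That average counts downstream positions only, while windows around summits close to a start reach across it into upstream DNA. The windows of 500 bp do so most, so windows and average do not cover the same DNA. In 200 bp, upstream summits averaged 67.3% (SD 7.17) and summits far from starts 66.6%. The difference of downstream from upstream summits was -4.08 percentage points, and it was -3.65 in replicate 1 and -4.96 in replicate 2 (SD 0.926, n = 2), so it exceeded the spread between replicates. All positions within 500 bp of a start average 54.5% downstream and 60.7% upstream. The sides thus differ in the same direction, and by more, before any peak is counted. The longest run of A and T around a downstream summit had 13.2 bases on average (SD 5.68), against 15.1 upstream.

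The DNA at the same distance on the other side of the start gave a second yardstick. There the mean was 61.3% (SD 8.35), which is 1.92 points below the summit (SD 9.96 over peaks), and 2.89 and 0.931 points in the replicates' lists. The summit was the A+T-richer side at 149 of 271 starts (54.98%), with 10 ties. At upstream peaks the contrast was wider, 67.3% at the summit against 56.9% at the mirrored position, and the summit was richer at 825 of 998 (82.7%). All positions within 500 bp upstream average 60.7% and all those downstream 54.5%. The mirrored positions of downstream peaks were therefore near the upstream average, and the summits well above the downstream average.

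**Figure D3:**
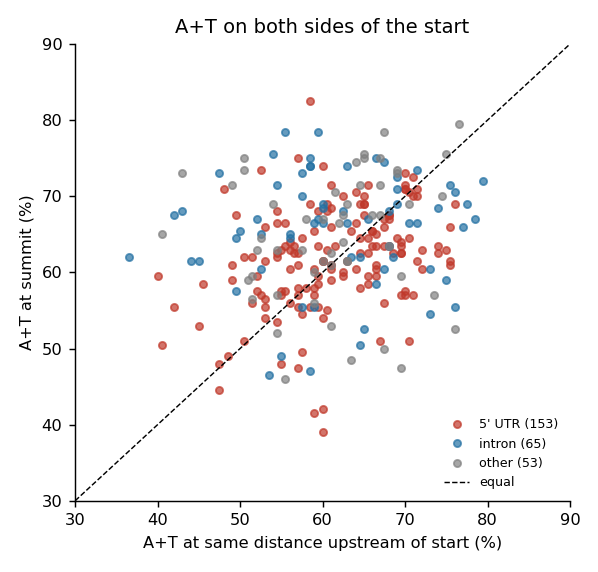
A+T content in 200 bp around each downstream summit (vertical axis, %) against that at the same distance upstream of its start (horizontal axis, %), coloured by annotation, with a dashed line where both are equal. The points lie on both sides of the line, 149 of 271 above it.

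Averages were also aligned on the start. At the starts of downstream peaks A+T was 64.8% at 240 bp upstream (-240), 52.8% at 20 bp downstream and 63.2% at 340 bp downstream. It averaged 60.7% over the downstream part of the profile, against 56.1% for the starts of upstream peaks and 54.8% for all 23583 starts.

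**Figure D4:**
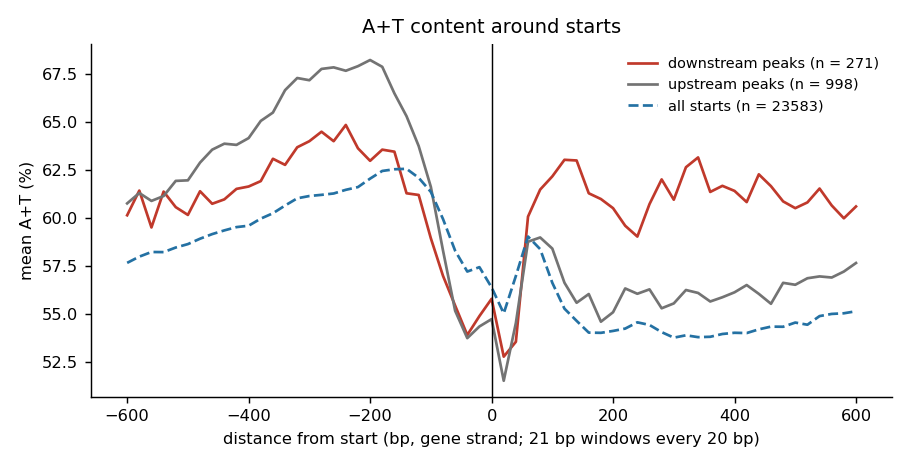
Mean A+T content in windows of 21 bp (vertical axis, %) by distance from the start in bp on the gene's strand (horizontal axis), for the starts of downstream peaks, of upstream peaks and of all genes. From 60 to 600 bp downstream the red line of downstream peaks runs highest, reaching 63.2% at 340 bp, and the line of all starts is highest from 80 bp upstream (-80) to 40 bp downstream. Farther upstream the grey line of upstream peaks is mostly highest, with 68.2% at 200 bp upstream (-200).

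A+T content varied by annotation and with signal among the members. Mean A+T was 69.5% for summits between genes, 65.6% in introns, 64.8% in non-coding exons, 61.7% in 5′ UTRs and 54.2% in coding exons. At the 6 coding exons the mirrored position was richer, at 66.2%, and the summit exceeded it at 1. The 90 members of highest signal averaged 65.1% (SD 6.41), the 90 in the middle 63.5% and the 91 lowest 61.3% (SD 8.28). The 31 members under 55% had a median signal of 164. The 55 members at 70% or more had a median signal of 208. By extremes, CalpB, a calpain protease gene, had 82.5% and CG30377 had 39%.

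Words made of A and T differed in how often they occurred. AATAT, the repeat unit of a satellite that D1 binds, was counted on either strand in 200 bp around the summit and was present at 61.3% of downstream summits (65.7% and 60.2% in the replicates' lists). It was present at 77.7% of upstream summits, 75.6% of far summits and 42.7% of all starts when read at 167 bp downstream. The word AAAAAAAA was present at 22.5% of downstream summits (24.3% and 20.4% in the replicates), 17.8% of upstream summits and 9.36% of all starts. The alternating word ATATATAT was rare, at 2.58% of downstream summits (4.18% and 3.54% in the replicates), 6.51% of upstream summits and 2.54% of all starts. On the gene's strand the bases around downstream summits were 33.0% A and 30.2% T, with more A than T at 152 and fewer at 117, while upstream summits had 33.5% A and 33.8% T. These words overlap one another in A+T-rich DNA and their shares describe letters, not bound sites.

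Words of promoter factors were searched the same way. GAGAG, a word bound by the GAGA factor that Trl encodes, was found at 21.03% of downstream summits, 21.5% of upstream summits and 20.6% of all starts at 167 bp downstream. On the opposite side it was more frequent, at 34.3% of the mirrored positions. Read at 167 bp upstream of every start, it was present at 40.2% of the starts of downstream peaks (36.8% and 40.1% in the replicates' lists), 32.7% of those of upstream peaks and 23.5% of all starts. TATAAA at 45 to 15 bp before the start was present at 3.32% of members, 4.51% of the starts of upstream peaks and 6.89% of all starts. The initiator word TCAGT within 5 bp of the start was present at 9.96% of members, 11.02% of the starts of upstream peaks and 7.15% of all starts.

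Deposited signal at downstream peaks ran from 142 to 890 with a median of 180, against a median of 207 at upstream peaks. The scale of the signal is not given, so values from the replicates' lists are set side by side as deposited, and how far a scale that differs between the lists bears on them was not tested. At the 245 members with a summit of both replicates within 100 bp, signal was higher in replicate 2 at 188 and in replicate 1 at 57. The mean log2 ratio of replicate 2 to replicate 1 was 0.37 (SD 0.58). At upstream peaks the mean ratio was 0.18 (SD 0.55), with replicate 2 higher at 592 of 902. Across these 245 peaks, which share libraries and are not independent, log2 signals correlated with Pearson r = 0.630 and Spearman rho = 0.466. Replicate 1 alone had a summit within 100 bp at 7 members and replicate 2 alone at 19, and none lacked both.

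**Figure D5:**
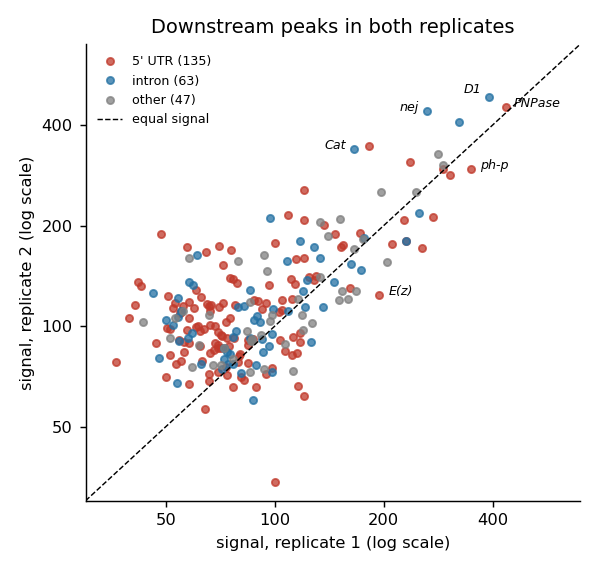
Deposited signal in replicate 2 (vertical axis, log scale) against replicate 1 (horizontal axis, log scale) at the 245 members with a summit in both, coloured by annotation, with a dashed line of equal signal. Of the 245 members, 188 had the higher signal in replicate 2, and PNPase and D1 stand at the upper right. The axes stop short of the lowest replicate 1 signals, so a few members fall outside the figure.

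PNPase had the highest peak of all members. It encodes polynucleotide phosphorylase, a mitochondrial RNA-degrading enzyme. Its signal was 890 in the reproducible set, 436 in replicate 1 and 453 in replicate 2, with summits at 77, 80 and 74 bp. Both replicates put the summit close to the same base. The summit lay in the 5′ UTR, just before the intron whose first bases are printed above.
D1's own gene came next, with signals of 845, 391 and 485. Its summit at 84 bp was in the first intron of an alternative start, while the replicates put it at 10 and 106 bp, less closely than at PNPase. The line carries a D1 transgene, and reads from the transgene and from the native gene cannot be told apart.

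Several named members encode chromatin regulators. The gene nej encodes the histone acetyltransferase CBP. Its signal was 706, with 263 in replicate 1 and 441 in replicate 2, and the summit lay at 229 bp in an intron with 67.5% A+T against 42% on the mirrored side. Polyhomeotic-proximal (ph-p), a subunit of Polycomb repressive complex 1, had 636, 348 and 296, at 433 bp in the 5′ UTR. E(z), the histone H3 lysine methyltransferase of Polycomb repressive complex 2, had 321, 195 and 124. Its longest A+T run, printed above, had 33 bases. The other ph-p peak, 114 bp downstream of another of its starts, had 160, with 52.2 and 113. Deposited signal was thus higher in replicate 1 at E(z) and at the higher ph-p peak, and higher in replicate 2 at the other. Trl had a weak peak, with 169, 63.9 and 98.3, in A+T-poor 5′ UTR.

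Other named members have separate roles. Puckered (puc), the phosphatase that restrains Jun kinase signalling, had 525, with 182 in replicate 1 and 346 in replicate 2. Catalase (Cat), which breaks down hydrogen peroxide, had 500, with 165 and 338. Deposited signal was higher in replicate 2 at both, as at 188 of the 245 members. CLIP-190, a protein of growing microtubule ends, had 583, with 306 and 283. The rest of the 15 highest were CG11309 (735), lncRNA:CR46102 (611), lncRNA:CR44149 (593), Pyroxd1 (586), CG32772 (560), lncRNA:CR44676 (507), CG1227 (499) and dbo (461).
The highest members with no summit of replicate 1 within 100 bp were CG3726 at 302, with 171 in replicate 2, and lncRNA:CR44655 at 283, with 178. These rest on replicate 2.

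The 271 peaks belonged to 267 starts of 266 genes, which is 1.46% of all 18164 genes and 1.5% of protein-coding genes (209 of 13945). Of the 13 gene lists looked up, those for signalling and for adhesion had the largest shares, on small counts. Upstream peaks were found at 9 of the 33 signalling genes and 5 of the 30 adhesion genes. Peaks at these lists were thus not particular to the downstream side. In Notch, Hedgehog, Wingless, Dpp and EGFR signalling, 5 of 33 genes (15.2%) had a downstream peak, and they were ci, fz, mam, pan and sty. The first is the transcription factor of the Hedgehog pathway (242 in the reproducible set, 124 in replicate 1 and 140 in replicate 2). Pan is the TCF factor of Wingless signalling (194, 79.4 and 114), fz a Wingless receptor (159), mam a Notch coactivator (191 at the higher of its peaks) and sty an inhibitor of receptor tyrosine kinases (153).
In neuronal adhesion and axon guidance 4 of 30 (13.3%) had a peak. The guidance receptor PlexB had 214, with 75.3 and 139 in the replicates, the teneurin Ten-a 176, with 72.1 and 117, and the Slit ligand sli 145, and fz was on this list too. All of these were well below the 15 highest.

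In Polycomb, trithorax and nucleosome remodelling 3 of 35 genes (8.57%) had a peak, and they were E(z), ph-p and Trl. In ecdysone response, the steroid programme that drives metamorphosis in pupae, 2 of 34 did. These were the nuclear receptor gene Eip75B (266, with 115 and 159) and the cyclin-dependent kinase gene Eip63E (219, with 71.8 and 153), and both genes also had an upstream peak. The clock-controlled transcription factor gene Pdp1 (214, with 94.8 and 117) was the only one of 13 clock genes, the autophagy gene Atg8a (191, with 57.9 and 136) the only one of 22 in cell death and autophagy, and D1 the only one of 22 chromosomal proteins. No downstream peak was found at the matched genes of the other lists, 44 homeotic and patterning factors, 25 ion channels, 21 muscle genes, 19 insulator and promoter factors, 18 heat shock genes or 12 glycolytic genes. At the 1.46% share of all genes, lists of 12 to 44 genes would hold less than 1 member each, so counts of 0 or 1 are near the background and say nothing of these groups. Of 347 list entries 19 matched no gene symbol and were not counted. The insulator and promoter list named the GAGA factor by an entry that did not match, and its gene Trl, counted under Polycomb and trithorax, does have a downstream peak.

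Chromosome 4, a small and largely heterochromatic chromosome, held more than its length. It had 12 members (4.43%; 12 and 13 in the replicates' lists), where 0.766% of downstream positions and 1.95% of all reproducible peaks lie. Its highest were ATPsynbeta, which encodes the catalytic beta subunit of mitochondrial ATP synthase, at 302 (97.1 in replicate 1 and 211 in replicate 2), and ci. PlexB, pan, Hcf and unc-13 were among the others, so 3 of the genes named above under signalling and guidance are on this chromosome. Mean A+T at its 12 summits was 68.0% (SD 3.66), within 62% to 73%. At the same distance on the other side of their starts it was 64.3%, against 61.3% for all members. Chromosome 4 also held 26 of the 998 upstream peaks. The other chromosomes held 45 to 62 members each, and chromosome 3R had the fewest for its length, with 16.6% of members on 23.6% of downstream positions.

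Transfer RNA genes were also frequent. There were 11 members at tRNA genes (4.06%; 9 and 14 in the replicates' lists), while tRNA genes own 1.23% of starts and 1.30% of upstream peaks. These transcripts are so short that 10 of the 11 summits lay past their end, at a median of 146 bp from the start, in DNA with 69.7% A+T (SD 7.15). Their signals ranged from 143 to 230. Many tRNA genes have near-identical copies, and how reads that map to several places were treated is not stated. The flanks of a pair of them show the A+T runs.
tRNA:Val-TAC-1-2, chr3L:5356570-5356649, minus strand, 85 to 164 bp downstream: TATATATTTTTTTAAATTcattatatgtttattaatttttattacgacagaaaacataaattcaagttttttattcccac
tRNA:Gln-TTG-1-3, chr3R:26947438-26947517, minus strand, 66 to 145 bp downstream: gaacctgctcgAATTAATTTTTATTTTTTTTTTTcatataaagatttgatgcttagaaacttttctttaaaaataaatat
The first had a signal of 208 (107 in replicate 1 and 88.5 in replicate 2) and the other 175 (86.7 and 91.4). Genes for other non-coding RNAs had 41 members (15.1%), near their 14.3% of starts and above their 7.31% of upstream peaks, with a median signal of 214 against 176 at protein-coding genes.

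Members were frequent at genes with several starts. Of them 162 (59.8%) were at such genes, against 47.9% of upstream peaks and 40.3% of all starts. The start was the gene's most upstream one at 176 (64.9%), against 74.1% for upstream peaks and 75.7% of all starts. In addition 78 members (28.8%) lay within 500 bp upstream of some other start, so that their side depends on which start is used. A start on the opposite strand lay within 1000 bp upstream at 85 members (31.4%), near the 31.7% of all starts. The 18.1% of upstream peaks is not a like measure, because no other start may lie nearer to an upstream summit than its own. At 1 to 100 bp the shares were 30.3% downstream and 28.0% upstream, and at 101 to 200 bp 40.6% and 29.3%. At 401 to 500 bp they were 25.9% and 3.16%.
At 20 members (7.38%) a separate reproducible summit lay upstream of the same start, and 45 of the 266 genes had an upstream peak at some start. A pair of downstream summits was found at 11 genes, AGO2, B4, CG5953, Mkp3, Mnt, Prosap, asRNA:CR45270, mam, nuf, ph-p and pyd.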

How the data were processed

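Whole pupae gave 2 biological replicates of an anti-GFP precipitation of D1-eGFP, placed in 1 group from the labels. The text notes deposited with the lists record that each replicate, and the pool of both, was called against a control, and that the reproducible (IDR) set was derived from the resulting lists. The deposited lists give a signal per peak, a -log10 q value and a summit. Neither labels nor notes name the aligner, the caller, the IDR threshold or the signal's scale. The -log10 q values the authors deposited were not used for ranking, because many are tied. The reproducible set was exactly the 3388 highest of 30000 pooled peaks. Replicate lists, of 30000 peaks each, were therefore also reduced to their 3388 highest by signal.

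Summits were assigned to starts of Ensembl release 115 on the Release 6 sequence (dm6 per the labels), with Python 3.11.15, numpy 2.4.6, pandas 2.3.3 and scipy 1.17.1. A position covered by several annotations counted once, with 5′ UTR first. A+T content was read in 200 bp around the summit. A replicate summit within 100 bp counted as the same peak. The assignment was checked on simulated data. The members, gene lists and words were chosen with earlier results of these data known. Genes named are the 15 highest peaks, up to 2 of each list, of each annotation and of chromosome 4, and the nearest and farthest. Up to 2 were also named of those with no summit of 1 replicate within 100 bp. CalpB, CG30377, the second ph-p peak, the other members with a coding-exon summit, the other listed genes, the other chromosome 4 genes, both tRNA genes and the genes with a pair of summits were named after their values were seen. Read depth is unknown, and the 2 replicates may differ by technique as well as by sample.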

Additional observations from a re-analysis of the deposited data

How the results depend on the processing

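Under 43 of 58 alternatives over 6 results the value stayed within 1 SD of the replicates. The A+T difference, the only one of these results that could change sign, did not. The SD came from the replicates' own lists, which are also among the alternatives. Midpoints in place of summits gave 270 downstream peaks and 50% coverage in both replicate lists gave 267, nearly the main set of 271. The count of 43 is therefore partly fixed by the settings and does not measure robustness. Counting starts within 1000 bp gave a downstream share of 28.2%, a median distance of 385.5 bp, an A+T difference from upstream summits of -2.53 points, an intron share of 44.3% and 34.0% of peaks that hold the start. With starts within 250 bp the median distance was 106.5 bp, the intron share 12.9% and the share that hold the start 86.0%. Distances and the share that hold the start follow from the zone that is counted, and for the others the cause was not tested. The 1694 reproducible peaks of highest signal had 65.3% A+T and a difference of -3.02 points, whose cause was not tested either. Windows of 500 bp gave 61.1% and -2.57 points. With either replicate left out, the median distance ranged from 155 to 168 bp. Keeping only peaks with the summits of both replicates on the same side, chosen after seeing the data, gave a median distance of 193 bp and 53.9% of peaks that hold the start. No paired analysis was possible because there is 1 group only. Depth limits which weak peaks were called, and it is unknown.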
